A study of Talpa occidentalis and Mus musculus with 35 samples.

Results

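The taste, vomeronasal and trace amine receptors of the Iberian mole Talpa occidentalis were read from the gene annotation of its genome assembly talOcc3. Members were all gene lines whose name, without a copy number or low-confidence mark, began with TAS1R, TAS2R, VN1R, VN2R, TAAR or FPR followed by a number. The rule found 41 of 23336 gene lines. They carried 26 symbols on 11 scaffolds, and VN2R and FPR each had 0 loci under these names. The study sequenced RNA of 35 gonad libraries, of which 19 were mole and 16 were mouse samples, in a search for genes behind the ovotestis, a gonad of female moles with an ovarian and a testicular part. The file analysed here held gene models and no value per library, so none of those groups entered a result and library depth is unknown. Gene models have no replicates, and the values below describe 1 annotation of 1 assembly.

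All of these receptors except the FPR family are known mainly from chemosensory cells. TAS1R proteins pair up to sense sugars and amino acids on the tongue, and TAS2R proteins each sense sets of bitter compounds. VN1R and VN2R receptors sit on neurons of the vomeronasal organ and detect pheromones and other social cues, TAAR receptors (apart from TAAR1, which acts in the brain) sit on neurons of the nose and detect volatile amines, and FPR receptors detect formylated peptides on immune cells and, in the mouse, also serve vomeronasal neurons. TAS2R, VN1R, TAAR and FPR genes usually carry their whole coding sequence in 1 exon, while TAS1R and VN2R genes encode a large extracellular domain over several exons.

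The bitter receptors formed the largest family by name. TAS2R had 21 loci of 16 symbols, VN1R had 10 loci of 3 symbols, TAAR had 7 loci of 5 symbols and TAS1R had 3 loci of 2 symbols. In the mouse annotation GENCODE M21 (GRCm38) the same families had 35, 207, 15 and 3 protein-coding genes, and Vmn2r (the mouse VN2R genes) and Fpr had 121 and 7. VN1R was the largest family in the mouse and stood below TAS2R in the mole by name. The mole order turned when models built on mouse receptor proteins but without a family name were added, with 27 VN1R and 21 TAS2R loci. Unnamed models on proteins of other species were not resolved to genes, so neither number includes them. The symbol with most loci was VN1R4, with 7. Those of them on mouse templates were built on Vmn1r89, Vmn1r214, Vmn1r223 and Vmn1r236, so the shared name need not mean copies of 1 gene. TAS2R42 had 3 loci, and TAS1R1, TAS2R3, TAS2R4, TAS2R43, TAAR3, TAAR6 and VN1R3 had 2 each. A symbol with several loci was carried by 24 of the 41 members (58.5%), against 35.7% of all named loci, and 17 members (41.5%) had a locus of the same symbol within 10 loci, against 16.5% of all named loci. Both shares were higher in odorant receptors, at 73.3 and 64.4% of class I loci and 87.85 and 71.1% of class II loci.

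**Figure D1:**
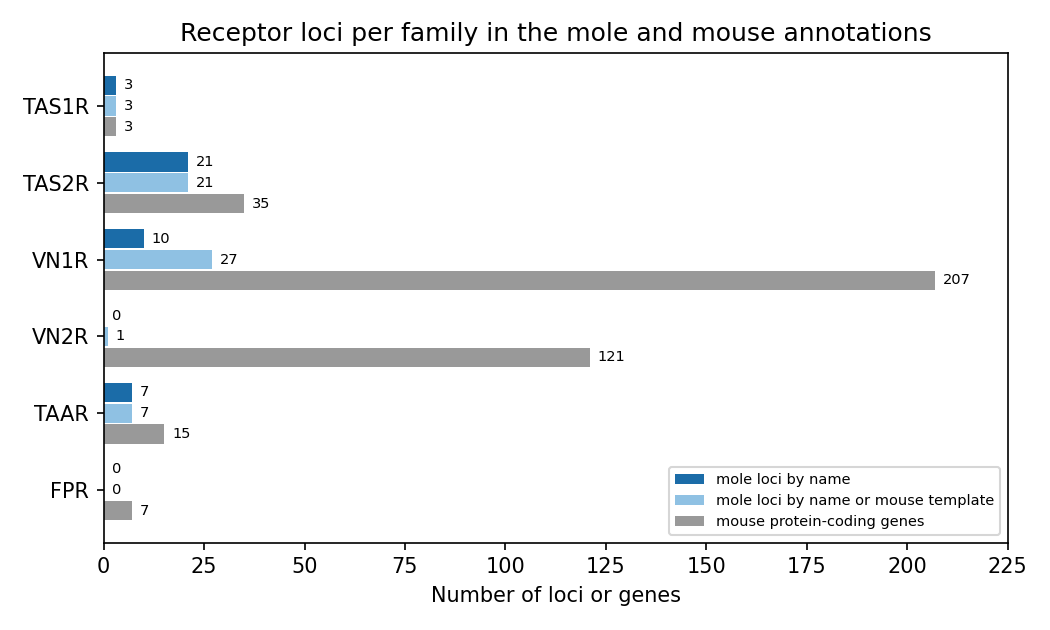
Number of loci per receptor family (horizontal axis) in the mole annotation by name, in the mole annotation by name or by a mouse template protein, and in the mouse annotation (protein-coding genes). VN1R goes from 10 loci by name to 27 with the models built on mouse Vmn1r proteins, against 207 mouse genes, and VN2R goes from 0 to 1.

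Coding length was set against the median of the mouse genes of the family, which was 2529 bases for TAS1R, 930 for TAS2R, 921 for VN1R and 1035 for TAAR, all without the stop codon. A locus was called full length when it reached 90% of that median. By this measure 37 of the 41 loci were full length (90.2%, exact binomial 95% interval 76.9 to 97.3%, which covers counting error only). All 21 TAS2R and all 7 TAAR loci were full length, as were 8 of 10 VN1R loci and 1 of 3 TAS1R loci. The call for TAS2R46 rests on the sum of 2 separate parts, of 372 and 600 bases. Neither part alone reached 90% of the median. The values left a wide gap around the threshold: the nearest loci under it were TAS1R1_lowConf_copy4 at 55.0% and VN1R4_copy2 of scaffold 3402 at 68.7%, and the nearest over it were TAS2R16 at 94.5% and VN1R4_copy4 at 94.8%. The coding length was not a multiple of 3 in 5 of the 41 loci, which was 12.2% of them and also 12.2% of all gene lines. These 5 were TAS1R2, TAS2R5, TAS2R40, TAS2R42_copy3 and VN1R4_copy6, and the last 4 of them were full length. Full length therefore says nothing here of an open reading frame, which was not analysed here because no mole genome sequence was used.

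**Figure D2:**
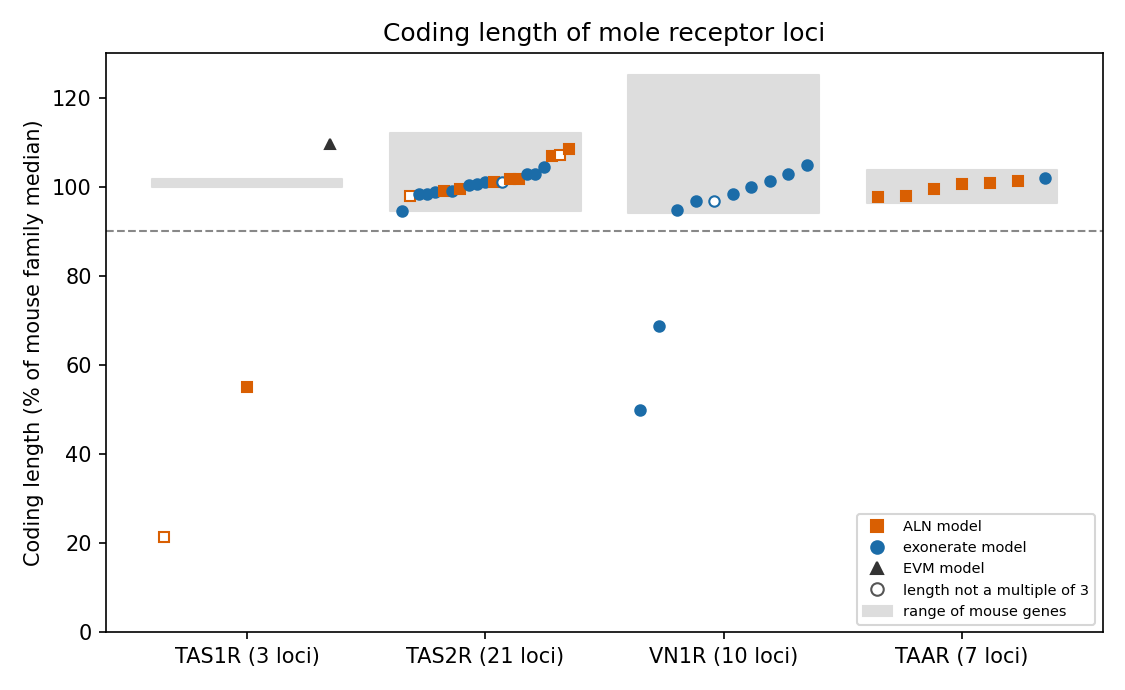
Coding length of each of the 41 loci as a percent of the mouse family median (vertical axis), by family; symbols give the model label in the annotation, open symbols a length that is not a multiple of 3, grey bands the range of the mouse genes and the dashed line 90%. The 4 loci under the line lie between 21.4 and 68.7%, and all TAS2R and TAAR loci lie above it.

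The sweet and umami receptors gave the least complete models. TAS1R1, which pairs with TAS1R3 in the amino acid receptor, occupied 100443223 to 100450847 of scaffold 2 (minus strand). Its model had 5 exons and 2772 coding bases, 109.6% of the mouse median. It lay between ZBTB48 and NOL9, and these genes flank Tas1r1 in the mouse too. TAS1R2, the partner of TAS1R3 in the sweet receptor, lay at 93094346 to 93112610 on the plus strand with 541 coding bases, 21.4% of the mouse median. Its parts held 520 and 21 bases and stood 17.7 kb apart, and its alignment covered bases 1955 to 2505 of the reference transcript. The TAS1R2 model thus covered 1 late stretch of the gene. It lay between ALDH4A1_copy3 and PAX7, which are also the neighbours of Tas1r2 in the mouse.

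The other TAS1R1 locus, TAS1R1_lowConf_copy4, lay on the same scaffold at 34957885 to 34960431, far from TAS1R1. It had 4 parts of 4, 47, 881 and 460 bases, 1392 coding bases in all, and neither an alignment nor a score, and its template was a human protein listed as GFC1. Its nearest named loci were LOC107983994_copy6 and XYLB_copy2 on one side and KIAA1191 and SIMC1 on the other. Xylb and Simc1 are on mouse chromosomes 9 and 13, and the mouse Tas1r genes are on chromosome 4. This was the only member with a low-confidence mark, which 0.0558% of all named loci carried. No locus was named TAS1R3, the partner that both taste dimers share. In the later mole assembly MPIMG_talOcc4v2.1 TAS1R3 stood between CPTP and DVL1, as it does in the mouse, and in talOcc3 the interval between those genes was 4.93 kb long and held 0 loci.

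Every bitter and trace amine receptor locus lay in a cluster under the rule used. A run was defined as at least 2 loci of a family with at most 10 other loci between neighbours. There were 7 runs with 34 of the 41 members: 4 of TAS2R, 2 of VN1R and 1 of TAAR. All 21 TAS2R and all 7 TAAR loci lay in runs, against 6 of 10 VN1R and 0 of 3 TAS1R loci. Of the 27 neighbouring pairs, 23 followed each other with 0 other loci starting between them and 23 were on the same strand, and the median gap was 7.99 kb. In the mouse, by the same rule, 3 Tas2r runs held 32 gene records, with 24 in the largest, and 11 Vmn1r runs held 204. The mouse totals of 35 and 207 genes count each symbol once, so these numbers are not shares of them.

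**Figure D3:**
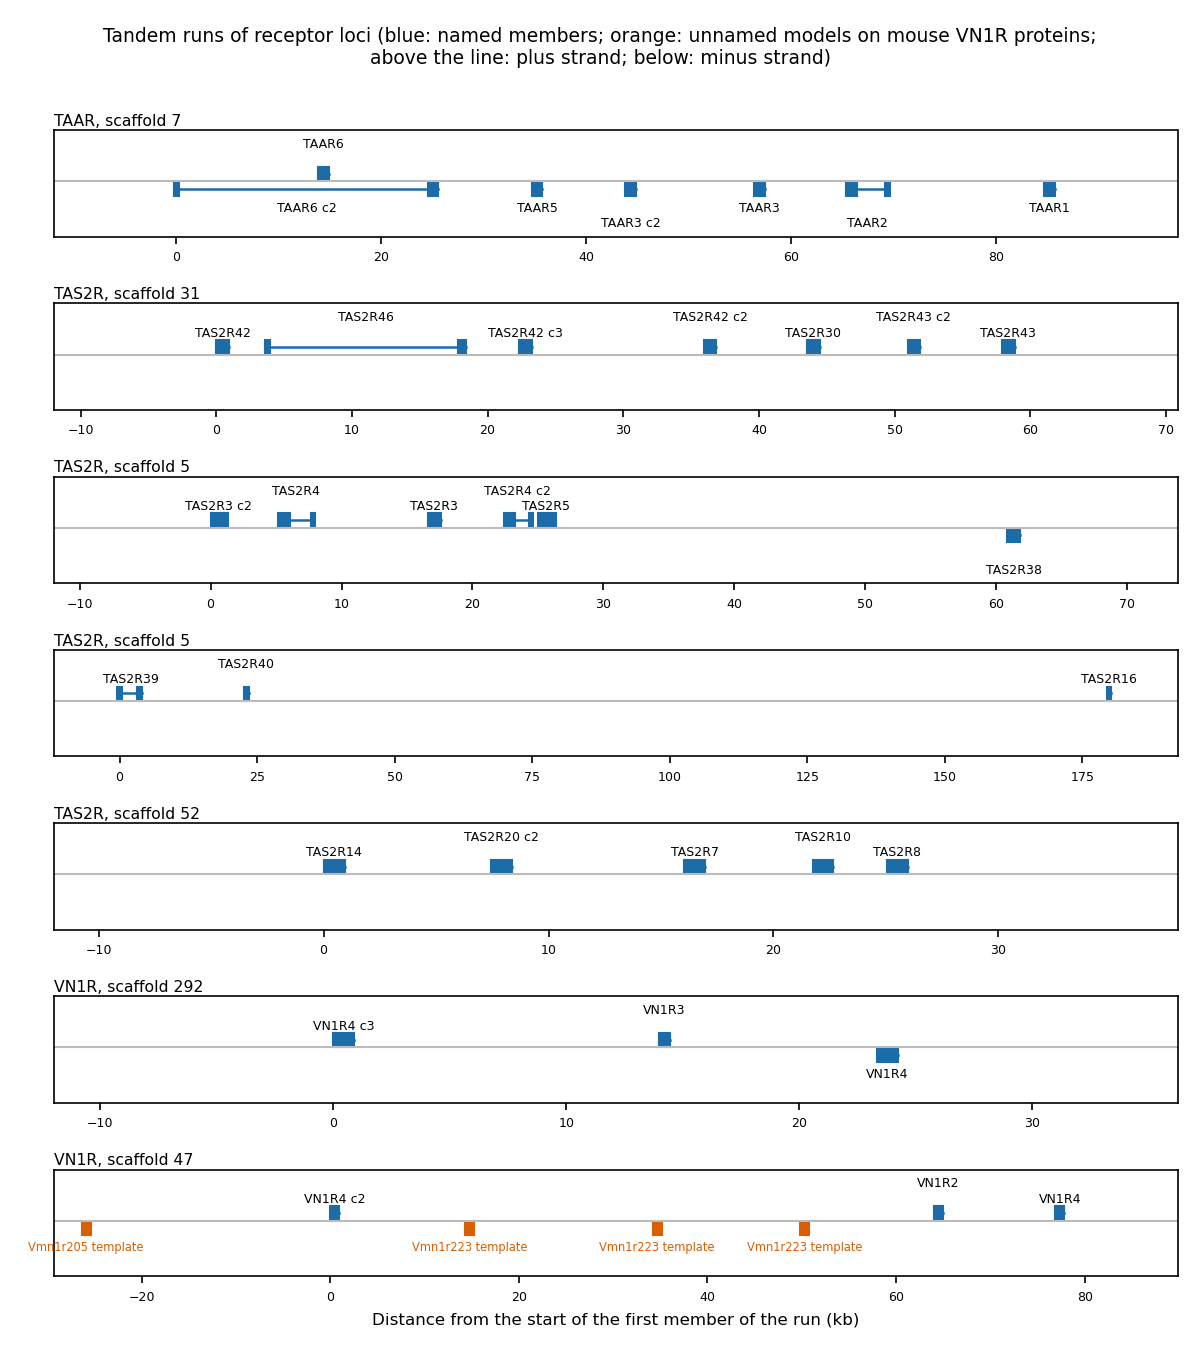
The 7 runs, each drawn from the start of its first member (horizontal axis, kb, a scale per panel), with coding parts as blocks widened to a visible size, thin lines joining parts of a model and c for copy. Plus-strand models stand above the line and minus-strand models below; the scaffold 47 panel has 4 unnamed models on the strand opposite to the 3 VN1R members.

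The trace amine receptors formed 1 run of 7 loci on scaffold 7 at 59260420 to 59346175, 85.8 kb long, between STX7 and VNN1. The next named loci were MOXD1 beyond STX7 and VNN3 beyond VNN1. In the mouse, Stx7 and Vnn1 enclose 15 protein-coding genes, all of them Taar genes, in the order Taar9, Taar8, Taar7, Taar6, Taar5, Taar4, Taar3, Taar2 and Taar1 from Stx7. By the start of each model, the mole order from STX7 was TAAR6_copy2, TAAR6, TAAR5, TAAR3_copy2, TAAR3, TAAR2 and TAAR1, so the shared names kept their order. The template proteins and alignments add detail for the loci whose names were used more than once. TAAR6_copy2 was built on the human TAAR9 protein, and TAAR6 on the mouse Taar7a protein. Only a 16-base part of TAAR6_copy2 lay nearest to STX7, and its main part of 1028 bases lay between TAAR6 and TAAR5. TAAR3_copy2 lay between TAAR5 and TAAR3, where the mouse has Taar4, and only 348 of its 1041 coding bases (33.4%) aligned to the TAAR3 reference, with a score of 182 against 1287 for TAAR3.

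The TAAR models differed little in size. Their coding lengths ran from 1011 bases in TAAR5, the trimethylamine receptor, to 1056 in TAAR6, and all 7 were multiples of 3. TAAR2 had the highest score of the TAAR loci, 1414, with 98.9% of its coding length aligned. TAAR1, the receptor known from the brain, had 1014 bases, a score of 1220 and 99.1% aligned. TAAR6 was the only one on the plus strand, and it lay inside the span of TAAR6_copy2, whose 16-base part stood 24.5 kb from its main part of 1028 bases.

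The bitter receptor run with most loci lay on scaffold 31 at 15323943 to 15382804, with 7 loci on the plus strand over 58.9 kb. Its order was TAS2R42, TAS2R46, TAS2R42_copy3, TAS2R42_copy2, TAS2R30, TAS2R43_copy2 and TAS2R43. TAS2R43 and TAS2R46 are known in humans as receptors for plant bitter compounds. The small gene SMIM10L1 lay within the run, LOC107985567 and ETV6 lay before it, and VIP and MYCT1 lay after it. Another run, of 5 loci on scaffold 52 at 4129 to 30086, began 4.13 kb from the start of its scaffold. It held TAS2R14 and TAS2R10, both known as broadly tuned bitter receptors, with TAS2R20_copy2, TAS2R7 and TAS2R8, and it was followed by YBX3 and STYK1.

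ETV6 before the scaffold 31 run and YBX3 after the scaffold 52 run enclose 1 stretch in the mouse and in the later mole assembly. In the mouse, Etv6 and Ybx3 enclose 35 protein-coding genes, 24 of them Tas2r genes, and Smim10l1. In the later mole assembly ETV6 and YBX3 enclosed 10 protein-coding loci, 7 of them with LOC names, among them TAS2R42, SMIM10L1 and TAS2R14 in that order, with 3 protein-coding loci between SMIM10L1 and TAS2R14. In talOcc3, ETV6 and YBX3 were on different scaffolds. VIP and MYCT1 are on mouse chromosome 10, and the Tas2r genes of the Etv6 stretch are on mouse chromosome 6.

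Scaffold 5 carried the other TAS2R runs. The first, at 67088815 to 67150686, held 6 loci over 61.9 kb: TAS2R3_copy2, TAS2R4, TAS2R3, TAS2R4_copy2 and TAS2R5 on the plus strand, then PRSS37 and PRSS58_copy2, then TAS2R38 on the minus strand. TAS2R38 is the receptor behind the ability to taste phenylthiocarbamide. The symbols TAS2R3 and TAS2R4 alternated, with TAS2R3_copy2 at a score of 771 against 831 for TAS2R3 and TAS2R4_copy2 at 612 against 645 for TAS2R4. SSBP1 and WEE2 lay before this run and MGAM and PRSS58 after it. Between Ssbp1 and Prss37 the mouse has 2 protein-coding genes, Tas2r137 and Tas2r108, where talOcc3 had 5 TAS2R loci, and the later mole assembly had 5 protein-coding loci there, 4 of them with LOC names. The mouse counterpart by position of TAS2R38, Tas2r138, also lies between Prss37 and Mgam.

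The remaining run on scaffold 5, at 67874766 to 68055077, was the loosest, with 3 loci over 180 kb. TRPV6 and KEL lay before TAS2R39 and TAS2R40, and 7 other loci from GSTK1 to EPHA1 separated these from TAS2R16, which was followed by OR10AC1 and TCAF2. TAS2R39 was the longest bitter receptor, with 1008 coding bases, and its score of 931 was the highest of those with a reference in bases. TAS2R16, in humans a receptor for salicin and related glucosides, was the shortest, with 879 coding bases. It was named from an amino acid alignment with a score of 205, and its template was mouse Tas2r118. In the mouse, Tas2r118 lies between Rnf148 and Slc13a1 with 159 protein-coding genes between it and Epha1, whereas Tas2r143, Tas2r135 and Tas2r126 follow Epha1. The mole locus named TAS2R16 thus lay beside EPHA1, at the place of other mouse Tas2r genes than its template.

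A further bitter receptor, TAS2R1, had no locus of that name. In the later mole assembly it stood between ATPSCKMT and SEMA5A, and the mouse has Tas2r119 between Fam173b (an older name of Atpsckmt) and Sema5a. In talOcc3 the 603 kb between SEMA5A and FAM173B held 1 locus, an unnamed model built on a human protein whose gene was not resolved here. Whether this model is the TAS2R1 gene was not tested, so the missing name does not show that the gene lacks a model. Of the 10 symbols of these families in the table of the later assembly, 8 were also member symbols here, and 18 of the 26 member symbols were not used as names in that table.

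The vomeronasal receptors were the most scattered. VN1R loci lay on 6 scaffolds, and 7 of the 10 were on scaffolds whose last annotated base lay under 50000, against 10.3% of all gene lines. No other member lay on such a scaffold. VN1R4_copy2 of scaffold 3402 ran from base 2 to base 634, and 634 was also the last annotated base of that scaffold. This locus, VN1R4_copy6 on scaffold 2227 and VN1R3_copy2 on scaffold 2505 were 3 VN1R loci that were each the only annotated locus of their scaffold. VN1R4_copy4 shared scaffold 257 with PLCXD1, which lay 41.8 kb before it.

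One VN1R run held VN1R4_copy3, VN1R3 and VN1R4 on scaffold 292 at 16972 to 41200. VN1R3 there was the shortest member of the family, with 459 coding bases, 49.8% of the mouse median, although it had the highest score of its symbol, 139. VN1R4 of this run had the highest score of the 4 VN1R loci with a reference in bases, 166, on an alignment of 31.9% of its coding length. No named locus flanked the run. On the same scaffold, before the run, 2 unnamed models of 921 and 489 bases were built on the same template proteins as VN1R3_copy2 and VN1R4_copy6, whose own loci were on scaffolds 2505 and 2227.

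The other VN1R run held VN1R4_copy2, VN1R2 and VN1R4 on scaffold 47 at 4110224 to 4188064, all on the plus strand. VN1R4 of this run was the longest of the family, with 966 coding bases, 104.9% of the mouse median. PRSS16 and HIST1H2BK lay before the run and ZNF322 and ABT1 after it. The templates of its members were Vmn1r214, Vmn1r214 and Vmn1r223, which lie on mouse chromosome 13, where Zfp322a stands between Vmn1r223 and Abt1. Between VN1R4_copy2 and VN1R2 lay 3 unnamed models on the minus strand, each of 957 bases and each built on Vmn1r223, and another unnamed model, built on Vmn1r205, lay before the run on the same strand. By template this cluster therefore held 7 loci over 104 kb, 3 on the plus strand and 4 on the minus strand.

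The template proteins showed VN1R-like models beyond the names. Of 659 exonerate models on mouse proteins, 639 could be assigned to a mouse gene, and 29 of these were genes of the 6 families. The 11 of them that were members were all built on a protein of their own family. Of the other 18, 16 had no symbol and 2 were named LOC101929088. VN1R templates accounted for 17 of these 18, on 7 scaffolds and 13 distinct mouse genes. Their coding lengths ran from 39.1 to 103.9% of the mouse median: 15 were full length, 15 had a single exon, 14 had a length that was a multiple of 3, and 10 met all of these conditions. By name or mouse template the mole annotation thus had 27 VN1R loci, 23 of them full length by the family median, against 207 mouse genes. Against their own templates, VN1R4_copy2, VN1R2 and VN1R4 of scaffold 47 reached 86.1, 84.7 and 89.2%. Each unnamed model on Vmn1r223 there reached 88.4%. These loci would miss the full-length threshold if it were set on the template. The other full-length models on mouse VN1R proteins reached 92.1 to 99.4%. The 27 loci include partial models and lengths that are not a multiple of 3, so they are not a count of intact genes. Models on proteins of other species were not resolved to genes here, so the number 27 covers mouse templates only.

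The largest group of such unnamed models lay on scaffold 36 at 18251112 to 18354308, with 6 models over 103 kb at the end of the annotated scaffold. Their templates were Vmn1r177, Vmn1r179, Vmn1r58, Vmn1r65 and again Vmn1r179 for the last 2, all on mouse chromosome 7. The models were not all separate single-exon loci. The Vmn1r58 model had 3 exons over 18285538 to 18343364 on the plus strand and spanned the starts of the minus-strand models after it. The last model had 2 exons and overlapped the Vmn1r58 model. Both counted as full length by the family median. The LOC101929088 loci, on scaffold 21, had the templates Vmn1r45 and Vmn1r7 of mouse chromosome 6 and coding lengths of 899 and 927 bases. The remaining model was the only one on a mouse VN2R protein, an unnamed model on Vmn2r2 at 37752480 to 37755036 of scaffold 13, with 2 exons and 1104 coding bases, 43.0% of the mouse Vmn2r median of 2565. It lay between GMPS and KCNAB1, and in the mouse Vmn2r2 is separated from Gmps by Vmn2r1 alone. No FPR model was found by name or by mouse template.

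A single coding exon was found in 30 of the 41 members (73.2%, exact binomial 95% interval 57.1 to 85.8%), against 24.7% of all gene lines. All 10 VN1R loci had 1 exon, as did 15 of 21 TAS2R, 5 of 7 TAAR and 0 of 3 TAS1R loci. In the mouse, 35 of 35 Tas2r, 205 of 207 Vmn1r, 14 of 15 Taar and 0 of 3 Tas1r genes had a single coding exon. The share moved with the label of the model. Of members labelled exonerate 22 of 23 had 1 exon, where all exonerate models had 79.4%; of members labelled ALN 8 of 17 had 1 exon, where all ALN models had 40.5%. The member labelled EVM, TAS1R1, had 5 exons, and only 0.494% of EVM models had 1. The part of the label in the share was not tested. Odorant receptors, the other large family of single-exon chemosensory genes, had 1 exon in 31 of 45 class I loci (68.9%) and 686 of 848 class II loci (80.9%).

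The coding parts show how the other 8 TAS2R and TAAR loci were split. In 7 of them the largest part held 94.4 to 98.5% of the coding bases and 16 to 59 bases stood elsewhere, and all 7 were labelled ALN. They were TAS2R3_copy2, TAS2R4, TAS2R4_copy2, TAS2R5, TAS2R39, TAAR6_copy2 and TAAR2. TAS2R46 was the exception, with parts of 372 and 600 bases 13.8 kb apart and SMIM10L1 between them. It was also the only member labelled exonerate with more than 1 exon, and 59.8% of its coding length aligned. Counting a locus as single-exon when 1 part held at least 90% of its coding bases gave 92.7% of all 41 members. This alternative also counts TAS1R2, whose larger part held 96.1% of its bases.

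**Figure D4:**
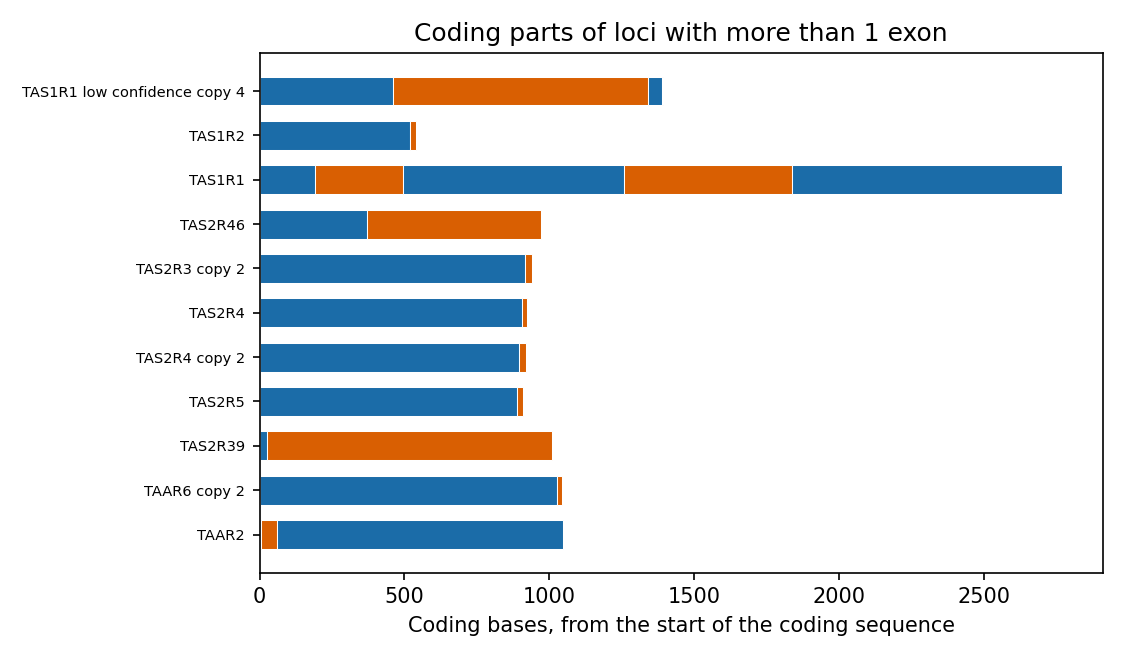
Coding bases of the 11 members with more than 1 exon (horizontal axis, from the start of the coding sequence), with colours alternating between parts. In 7 of the 8 TAS2R and TAAR loci 1 block nearly fills the bar, while TAS2R46 is split into 372 and 600 bases and TAS1R1 into 5 blocks.

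The names rest on alignments of different kinds. Each of the 41 members but TAS1R1_lowConf_copy4 carried a score, the span of a reference and the span of the model, and the ratio of the spans shows whether the reference was in bases or in amino acids. The reference was in amino acids in 9 of 40 members, against 3.92% of all models with an alignment. These were 6 VN1R loci and the TAS2R loci TAS2R7, TAS2R16 and TAS2R20_copy2. Scores per aligned base of the model ran from 0.138 to 0.258 in these 9 and from 0.459 to 1.37 in the 31 with a reference in bases, so scores were compared within a kind only. Among references in bases, the median score per aligned base was 1.22 for TAAR, 0.64 for TAS2R and 0.58 for VN1R.

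Less than 50% of the coding length was aligned in 7 of 40 members, against 7.56% of all models with an alignment. They were all 4 VN1R loci with a reference in bases, TAS2R42_copy2, TAS2R42_copy3 and TAAR3_copy2. The lowest value was that of VN1R3_copy2, where 176 of 921 coding bases, or 19.1%, carried the name. The 6 VN1R loci named from amino acid references had 84.8 to 99.3% aligned. Among bitter receptors TAS2R42_copy3 had the lowest score on a reference in bases, 183, and TAS2R7 the lowest on one in amino acids, 186. The score of TAS2R42_copy3 was 33.2% of the 551 of TAS2R42. This locus, TAS2R42_copy2 and TAAR3_copy2 were the 3 members with a score under 50% of the highest of their symbol, a property of 10.2% of all models with a score.

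**Figure D5:**
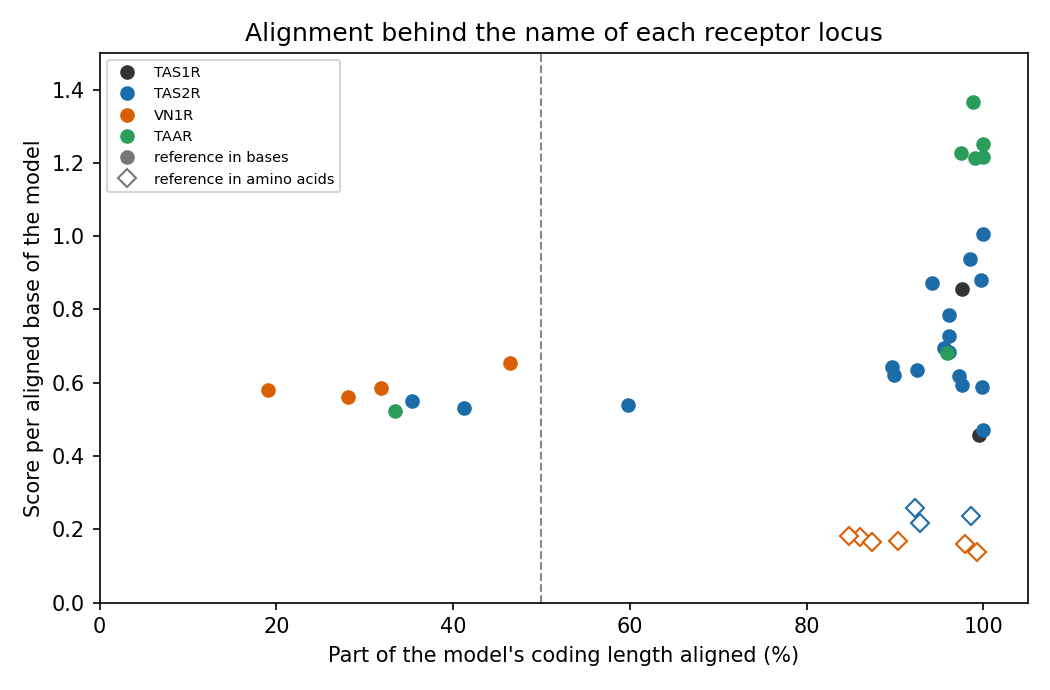
Part of each model's coding length that aligned to the reference behind its name (horizontal axis, percent) against the score per aligned base (vertical axis) for the 40 members with an alignment; open diamonds are references in amino acids and the dashed line is 50%. All 4 VN1R loci with a reference in bases lie left of the line, together with 2 TAS2R loci and 1 TAAR locus.

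Most genes of a list written for the signalling of these receptors had 1 locus. Of its 41 genes for taste, vomeronasal, olfactory and formyl peptide signalling, 31 had 1 locus, 6 had several and 4 had 0. For comparison, 35.7% of all named loci carried a symbol with several loci, a share of loci and not of genes. Of the 17 taste genes in the list 13 had 1 locus, 3 had several and 1 had 0. Of the 10 vomeronasal genes in the list 7 had 1, 2 had several and 1 had 0. The genes with 0 loci were GNG13 and GNG8, G protein gamma subunits of taste and vomeronasal cells, OMP, the olfactory marker protein, and SAA1, a ligand of FPR2. GNG8 and OMP stood in the table of the later assembly and GNG13 and SAA1 did not. TRPC2 was among the genes with a locus here that were not in that table either. TRPC2, the cation channel that vomeronasal neurons need to respond, had 1 locus on scaffold 18 with 12 exons and 1947 coding bases, 72.9% of the mouse length. The best locus lay between 90 and 110% of the mouse coding length for 17 of the 41 genes, and the same share over all genes was not analysed here.

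The signalling genes outside that range fell on both sides of it. PLCB2, the phospholipase that taste receptor cells use, had a best locus of 81.5% and a PLCB2_copy2 of 360 bases. TRPM4, a cation channel beside TRPM5 in taste cells, had 84.1% and a TRPM4_copy2 of 996 bases. GNB1, a G protein beta subunit, had 1 locus of 396 bases, 38.8%, and ANO1, a calcium-activated chloride channel, had 29.5%. In the olfactory group, which TAAR neurons use, ADCY3 had 3 loci with the best at 61.7%, and CNGB1 had 2 with the best at 64.6%. RIC8B was at 65.0%, RTP1 at 80.2% and GNAL, the olfactory G protein alpha subunit, at 82.6%. The ion channels PKD1L3, CALHM1 and SCN9A were at 77.2, 81.3 and 82.0%. Lengths over the range were found for CALHM3 (118.4%), ANXA1 (117.9%), OTOP1 (111.0%) and ANO10 (110.3%). GNAO1, the G protein alpha subunit of VN2R neurons, had 170.1% and GRK2, a receptor kinase, 132.8%. ITPR3, the calcium release channel of taste cells, had a best locus at 102.5% and 2 further models of 204 and 354 bases inside its span. ADCY2 had a best locus at 101.4% and an ADCY2_copy2 of 207 bases in 1 exon. A best locus within the range was found for 8 of 17 taste genes and 3 of 10 vomeronasal genes.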

How the data were processed

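The 35 libraries were described by labels only, and groups were taken from them. The file analysed here is the authors' annotation of talOcc3, with 1-based positions on scaffolds as deposited and a score that the authors deposited on transcript models with an alignment (21473 of 23336). The meaning of the score and the making of the models labelled EVM, exonerate and ALN are not stated in the labels or the file. Per the submitters' processing notes STAR 2.6.1d and the build mm9 were used, with no role given. The file holds no value per library, so no expression test was run and no depth is known.

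Each locus was joined to its coding sequence with Python 3.11.15 (numpy 2.4.6), intervals came from scipy 1.17.1 and plots from matplotlib 3.10.9. Exons were counted as coding parts throughout, so an exon without coding bases was not counted. A reference counted as amino acids when its span was 2.5 to 3.5 times smaller than that of the model, and as bases at a ratio of 0.5 to 1.5. Mouse lengths and gene order came from GENCODE M21 (protein-coding, GRCm38). The later mole assembly served for names and neighbours only. The steps were tested on simulated data.

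The members and lists were chosen with earlier results of these data known. Values are given for each locus of families with at most 5 loci, otherwise for the longest, shortest, highest- and lowest-scoring locus, the run members and the symbol with most loci; other members were named after their values were seen. Named neighbours are the nearest 2 on each side of a run, and signalling genes those with 0 or several loci or outside 90 to 110%, of which 1 is not reported here. Alternatives varied names, scaffolds, score, coding length, run distance, strand, full-length threshold and joined exons.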

Additional observations from a re-analysis of the deposited data

How the results depend on the processing

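No paired analysis was possible because the annotation carries no values per library. With 41 members as reported, leaving out low-confidence names, short scaffolds, scores under 50% of the highest of the symbol or coding lengths under 300 gave 34 to 41 loci. Adding the models on mouse receptor proteins, an alternative chosen after seeing the data, gave 59 in all and, for VN1R, 27 in place of 10. Scaffolds annotated to 1000000 or beyond held 3 of the 10 VN1R loci. Other run distances and the same-strand rule gave 31 to 34 loci in runs, and full-length loci numbered 33 to 37 at thresholds of 80 and 95% or with a multiple of 3. The single-exon share of 73.2% became 92.7% when 1 part with at least 90% of the coding bases counted as a single exon, also chosen after seeing the data. Of 95 alternative values 89 stayed within the counting interval or 1.5 times the count. Some of these could not move. Leaving loci out cannot change the 0 loci of VN2R and FPR, and the shortest member had 459 coding bases, above the limit of 300. The alternative with mole proteins as the length reference was not run, because no such table was used here. Positions, lengths and names depend on the assembly: a locus missing by name may lie in sequence that was not analysed here.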

Other observations

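The copy numbers of VN1R4 ran in 2 series. The names VN1R4 and VN1R4_copy2 were each used on 2 lines, once for a reference in bases and once for a reference in amino acids. The series in bases had scores of 166 and 100. The series in amino acids had 5 loci, with scores from 149 down to 122, and its copy number 5 had no locus. In the whole file 70 names were used on more than 1 line, and in 65 of them the lines differed in the kind of reference.

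TAS2R20 was present only as TAS2R20_copy2, with a score of 222 where the highest score listed for the symbol was 269. Its template was mouse Tas2r106, while that of TAS2R10, in the same run, was Tas2r114, and both mouse genes lie between Etv6 and Ybx3. TAS2R46, in the run on scaffold 31, was built on Tas2r123 of the same mouse stretch. The 11 members on mouse templates had 46.5 to 101.0% of the coding length of their template, and 6 of them had over 90%.

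An unnamed model of 360 bases on scaffold 1168 shared its template, Vmn1r214, with VN1R4_copy2 and VN1R2 of scaffold 47. In all, 6 unnamed models shared a template protein with a member, and each of these members was a VN1R locus.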
